A study of Mus musculus with 16 samples.

Results

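8 genes of the muscle Z-disc and of its stretch response are described here over 2 limb muscles of SOD1G93A and non-transgenic mice: Myoz2, Myoz1, Actn2, Pdlim1, Ldb3, Csrp3, Tcap and Ankrd2. They were taken as every probe set of the deposited table to which the platform annotation gives 1 gene symbol, that symbol being a member. This gave 11 of the 7729 probe sets and 8 of the 4929 genes with such a symbol, with 3 probe sets for Ldb3, 2 for Myoz1 and 1 for each other gene. A filter on dim signals left 4637 probe sets for the tests, and 11 of the 11 passed it.

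The tested mice were female C57BL/6 carrying transgenic human SOD1 with the G93A substitution (SOD1G93A), a model of amyotrophic lateral sclerosis, and the controls were non-transgenic (NTg) females of the same strain. All were 7 weeks old, before symptoms. Gastrocnemius, a calf muscle, and triceps, a forelimb muscle, came from 4 mice of each genotype, giving SOD1G93A gastrocnemius, NTg gastrocnemius, SOD1G93A triceps and NTg triceps with 4 Affymetrix arrays each. The labels state neither the promoter nor the copy number of the transgene.

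The Z-disc is the protein lattice that anchors the actin filaments of neighbouring sarcomeres, and alpha-actinin is its main crosslinker. Calsarcins, PDZ-LIM proteins and titin's partners are docked on this lattice, where they hold signalling enzymes such as the phosphatase calcineurin and take part in sensing stretch. In rodent limb muscle the calsarcins divide by fibre type: Myoz2 (calsarcin-1) belongs to slow fibres and heart, and Myoz1 (calsarcin-2) to fast fibres.

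Of 9 markers of skeletal muscle 8 were in the table and 7 passed the filter, the dim one being Chrna1, the muscle acetylcholine receptor subunit. Of 7 heart-only markers 0 were in the table. 3 triceps arrays stood apart from the other 5, namely those of SOD1G93A mouse 2 and of NTg mice 1 and 2. Ckm, the muscle creatine kinase, read 12.76 to 13.02 on them and 13.84 to 14.51 on the other triceps arrays. Values are log2 signals throughout, differences are on that scale, and a signal is compared between arrays and never between probe sets. A bulk sample cannot tell fewer cells of a type from less RNA per cell.

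5 genes were higher in gastrocnemius than in triceps in both genotypes: Myoz2, Ankrd2, Csrp3, Pdlim1 and Actn2. Myoz2 was the most different, at 7.25-fold in SOD1G93A mice and 12.3-fold in NTg mice, and it had the smallest p of all 4637 tested probe sets in each genotype. Ankrd2 and Csrp3 differed by more than 4-fold, Pdlim1 by 2.56-fold in SOD1G93A mice and 3.1-fold in NTg mice, and Actn2 by 1.97-fold and 1.87-fold. Tcap, Ldb3 and Myoz1 did not pass the test between the muscles.

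The upstream sequences of the 3 genes with the largest differences between the muscles are shown. RefSeq promoters (assembly GRCm38.p6), of 250 bases before the annotated start, were at hand for 6 of the 8 genes. Positions count back from the start that the RefSeq promoter table uses. The printed part runs from base 250 to base 1 before that start for Csrp3, but stops at base 17 for Myoz2 and at base 111 for Ankrd2, where the annotated gene already begins. Each sequence is read 5′ to 3′ along the gene's own strand, and capitals mark matches to the MEF2 consensus and to the E-box CANNTG. They lie at chr3:123035004-123035237 (minus strand), chr7:48848052-48848301 (minus strand) and chr19:42035777-42035916 (plus strand).
Myoz2: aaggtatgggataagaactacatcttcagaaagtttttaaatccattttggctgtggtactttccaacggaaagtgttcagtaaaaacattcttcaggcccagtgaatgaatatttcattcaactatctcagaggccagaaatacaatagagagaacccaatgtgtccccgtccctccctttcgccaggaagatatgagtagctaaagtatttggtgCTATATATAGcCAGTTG
Csrp3: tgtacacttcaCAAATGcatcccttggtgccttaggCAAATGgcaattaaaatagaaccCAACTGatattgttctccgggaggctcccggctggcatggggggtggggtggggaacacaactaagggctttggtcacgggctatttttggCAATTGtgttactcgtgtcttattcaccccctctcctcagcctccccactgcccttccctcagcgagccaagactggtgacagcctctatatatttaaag
Ankrd2: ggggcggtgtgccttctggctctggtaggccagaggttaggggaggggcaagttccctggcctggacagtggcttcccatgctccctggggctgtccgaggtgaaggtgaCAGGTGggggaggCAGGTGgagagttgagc

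Both strands were searched for the MEF2 consensus, the CArG box, CANNTG with its form CAGCTG, and GGAAA, the core of NFAT sites. Myoz2 had the only MEF2 match among the 6 promoters, ending 24 bases before the start, and the same letters hold a TATA-like stretch. A MEF2 match is in 2.92% of 32851 windows of the same length, a CArG box in 1.47%, GGAAA in 55.6%, CAGCTG in 13% and CANNTG in 66.2%. The E-box occurred 4 times in the Csrp3 window, 3 times each in those of Ankrd2 and Actn2, 2 times in that of Myoz2, and not in those of Pdlim1 and Ldb3. 1 of the Myoz2 matches and 1 of the Ankrd2 matches lie beyond the printed letters, nearer the start, where the annotated gene has already begun. Ldb3 had the only CArG match, at bases 35 to 26 before the start, and it too ends within the annotated gene. These are letters in a window and not known sites.

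Myoz2, the calcineurin-binding calsarcin of slow fibres, read 10.54, 11.10, 10.90 and 10.82 in gastrocnemius of SOD1G93A mice 1 to 4, and 7.73, 7.34, 8.04 and 8.81 in their triceps. In NTg mice it read 11.24, 10.99, 10.60 and 10.87 in gastrocnemius, and 7.76, 6.52, 7.30 and 7.62 in triceps. Every gastrocnemius array lay above every triceps array, with 1.73 between the lowest of one and the highest of the other, SOD1G93A triceps 4. The difference was 2.86 (SE 0.28) in SOD1G93A mice, with limma's adjusted p = 3.54e-05, and 3.62 (SE 0.28) in NTg mice, with adjusted p = 8.83e-07. Within a mouse it ranged over 2.01 to 3.76 in SOD1G93A and 3.25 to 4.47 in NTg mice.

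Actn2, the alpha-actinin on which the calsarcins and the PDZ-LIM proteins dock, read 10.75, 10.77, 10.96 and 10.95 in SOD1G93A gastrocnemius, and 9.73, 9.33, 10.27 and 10.20 in SOD1G93A triceps. NTg mice had 11.07, 10.78, 10.88 and 10.80 in gastrocnemius, and 10.26, 9.77, 9.65 and 10.25 in triceps. The muscles did not overlap, with a gap of 0.48, although the difference was the smallest of those that passed. It was 0.98 (SE 0.19) in SOD1G93A mice and 0.90 (SE 0.19) in NTg mice, with limma's adjusted p = 0.012 and 0.0164.

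Pdlim1, a PDZ-LIM protein that binds alpha-actinin, read 9.18, 9.39, 9.46 and 9.18 in SOD1G93A gastrocnemius, and 8.27, 7.31, 8.27 and 7.95 in SOD1G93A triceps. Its NTg values were 9.53, 9.30, 8.96 and 9.09 in gastrocnemius, and 8.05, 7.55, 7.39 and 7.36 in triceps. The muscles were apart by 0.70 at the nearest arrays, and the gastrocnemius values were packed closely in both genotypes. The difference was 1.36 (SE 0.21) in SOD1G93A mice and 1.63 (SE 0.21) in NTg mice, with limma's adjusted p = 0.00166 and 0.000173.

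Csrp3, the muscle LIM protein that links alpha-actinin with telethonin and has been tied to stretch sensing, read 9.38, 9.40, 9.68 and 8.57 in SOD1G93A gastrocnemius, and 7.06, 5.99, 7.98 and 7.41 in SOD1G93A triceps. The NTg values were 9.87, 9.80, 8.42 and 9.59 in gastrocnemius, and 7.72, 5.97, 5.97 and 7.35 in triceps. The muscles did not overlap (gap 0.44), while triceps arrays of 1 genotype lay up to about 2 log2 units apart. The difference was 2.15 (SE 0.45) in SOD1G93A mice and 2.67 (SE 0.45) in NTg mice, with limma's adjusted p = 0.0228 and 0.00261.

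Ankrd2, an ankyrin-repeat protein of the titin spring that is raised by stretch, read 9.31, 9.32, 9.43 and 8.69 in SOD1G93A gastrocnemius, and 7.05, 5.95, 8.11 and 7.06 in SOD1G93A triceps. NTg mice had 10.00, 9.89, 8.77 and 9.70 in gastrocnemius, and 7.74, 6.26, 5.82 and 6.94 in triceps. The gap between the muscles was 0.58, and the lowest gastrocnemius arrays were SOD1G93A mouse 4 and NTg mouse 3, as they were for Csrp3. The difference was 2.14 (SE 0.42) in SOD1G93A mice and 2.90 (SE 0.42) in NTg mice, with limma's adjusted p = 0.0137 and 0.000529. Some triceps signals of Csrp3 and Ankrd2 lay under the filter level of 6.75, so their folds rest partly on dim signals. With 16 signal units added before the logarithm, the averaged differences were 2.24 for Csrp3 and 2.35 for Ankrd2, against 2.41 and 2.52 as deposited.

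**Figure D1:**
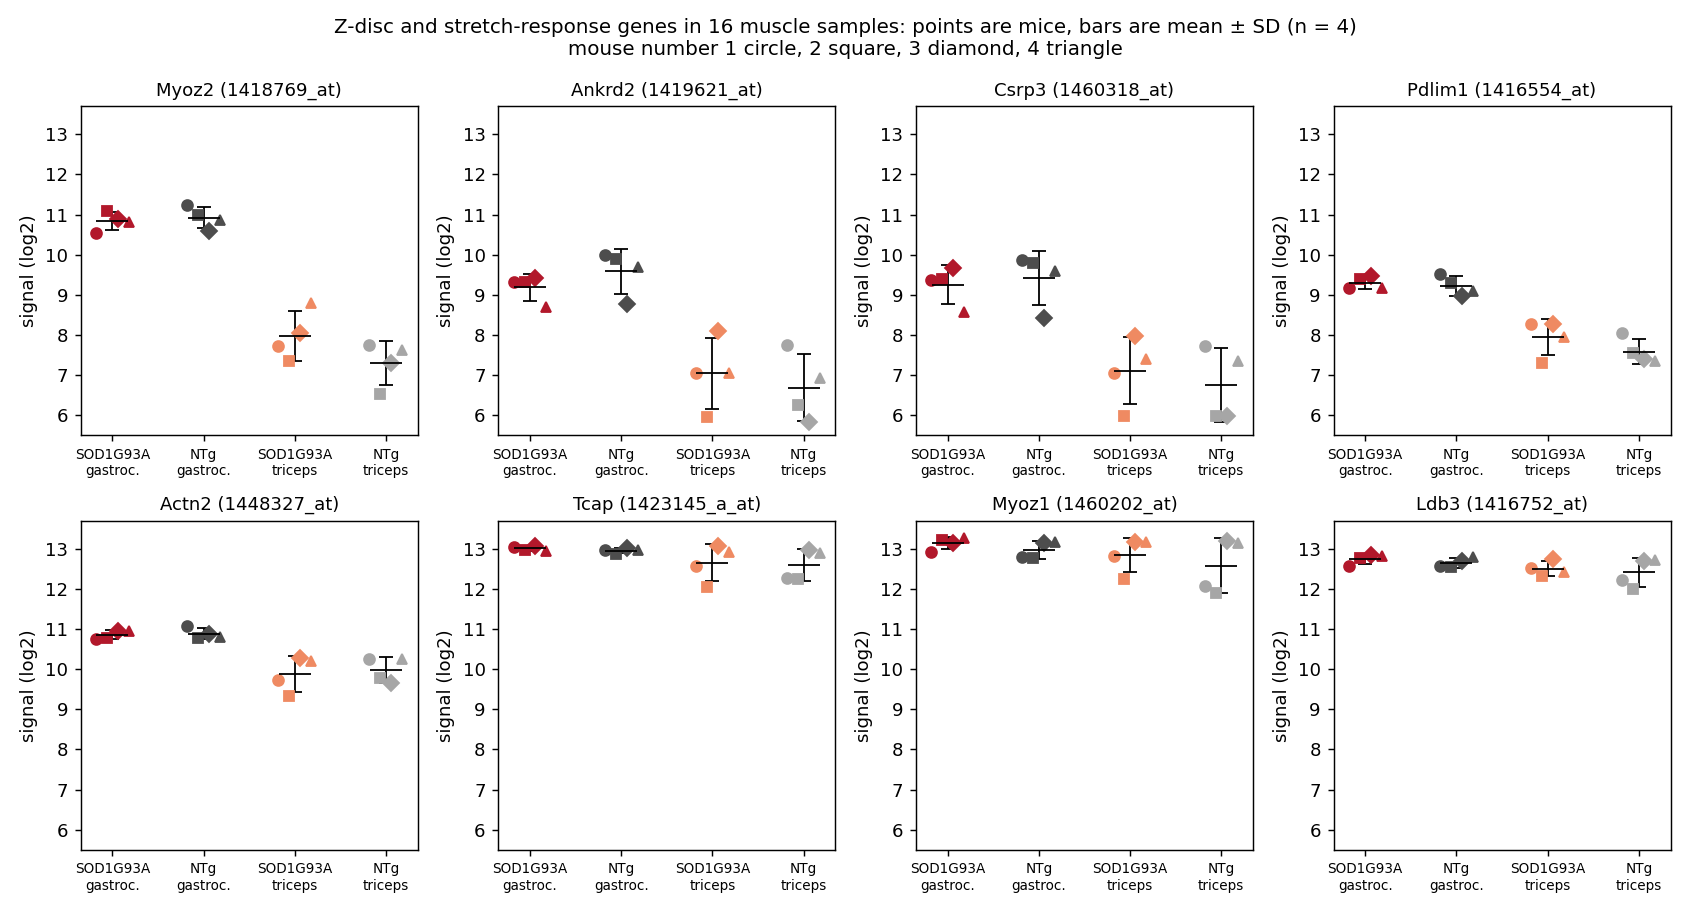
Log2 signal (vertical axes) of the brightest probe set of each of the 8 genes, 1 panel per gene, with the 4 groups along the horizontal axis, a marker for each mouse and bars for the mean ± SD (n = 4). The gastrocnemius and triceps arrays do not overlap for Myoz2, Ankrd2, Csrp3, Pdlim1 and Actn2, and they overlap for Tcap, Myoz1 and Ldb3.

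By limma, 5 of the 11 probe sets were called higher in gastrocnemius in SOD1G93A mice, against 0.819% of all probe sets tested, and 5 of 11 in NTg mice, against 1.14%. Averaged over both genotypes the same 5 were called, against 2.11% of all, and every gastrocnemius array stood above every triceps array for 5 of 11, against 1.25%. The members were chosen with earlier results of these data known, so these shares are a description and no test of the set. The median difference over the 8 genes, each by its brightest probe set, was 1.17 in SOD1G93A and 1.27 in NTg mice, where the median over all tested probe sets was -0.01 and 0.01. With the mouse as a block, the averaged comparison called 318 probe sets of the whole table instead of 171 and the same number of members, 5.

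With single arrays left out, the call in SOD1G93A mice was lost for Csrp3 (adjusted p up to 0.109 by limma, without gastrocnemius 1, 2 or 3 or triceps 1 or 2). It was lost for Ankrd2 (up to 0.0631, without gastrocnemius 2 or 3 or triceps 2) and for Actn2 (up to 0.0567, without gastrocnemius 3 or triceps 1). In NTg mice it was lost only for Actn2 (up to 0.0793, without gastrocnemius 1 or triceps 2 or 3). The averaged comparison kept 5 calls with any array left out.

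**Figure D2:**
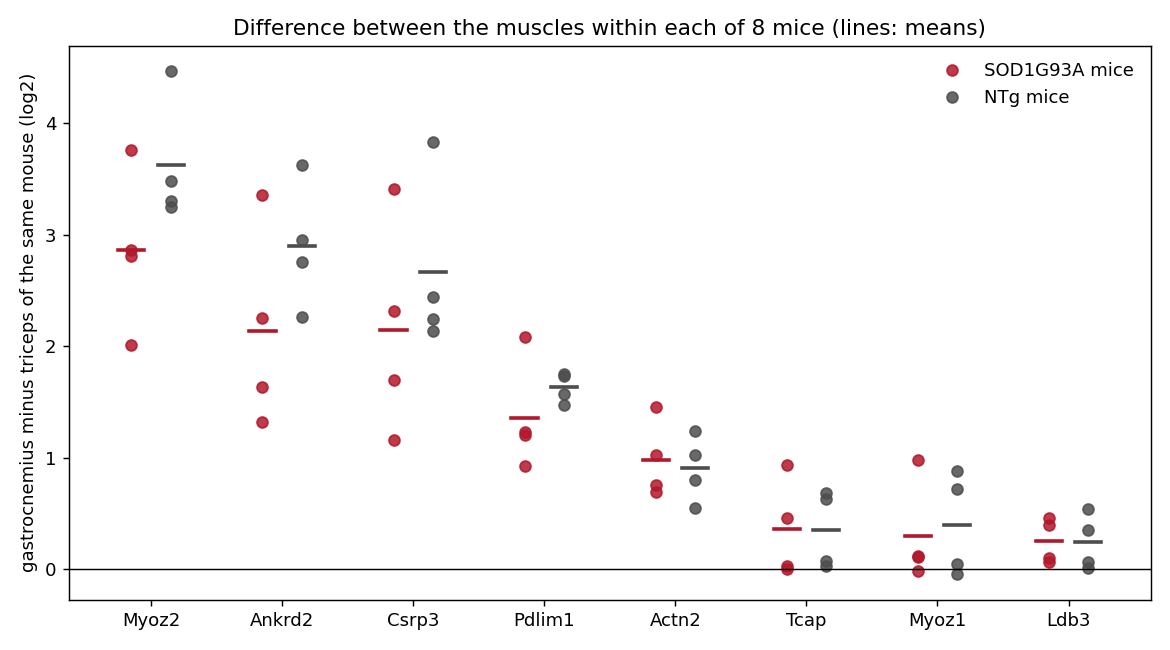
Gastrocnemius minus triceps log2 signal within each mouse (vertical axis) for the brightest probe set of each gene (horizontal axis), with 1 point per mouse, SOD1G93A left of NTg, and a line for each genotype's mean. All 8 mice are above 0 for Myoz2, Ankrd2, Csrp3, Pdlim1 and Actn2 (the lowest of these points is 0.55, for Actn2), and Myoz1 has points on both sides of 0.

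Tcap, or telethonin, which caps the end of titin in the Z-disc, read 13.04, 12.97, 13.08 and 12.95 in SOD1G93A gastrocnemius, and 12.58, 12.04, 13.08 and 12.92 in SOD1G93A triceps. The NTg signals were 12.96, 12.87, 13.01 and 12.97 in gastrocnemius, and 12.28, 12.24, 12.98 and 12.90 in triceps. The 8 gastrocnemius arrays were nearly level, while triceps held 3 low arrays, those of low Ckm. The averaged difference of 0.35 (SE 0.15) did not pass (limma's adjusted p = 0.167), and it was 0.08 without those 3 arrays. With numbers 1 and 2 against 3 and 4 as a block the difference of 0.35 was called (adjusted p = 0.0499).

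Myoz1, the calsarcin of fast fibres, read 12.93, 13.23, 13.14 and 13.27 on its brighter probe set in SOD1G93A gastrocnemius, and 12.81, 12.25, 13.17 and 13.16 in SOD1G93A triceps. In NTg mice it read 12.80, 12.77, 13.14 and 13.18 in gastrocnemius, and 12.08, 11.89, 13.19 and 13.14 in triceps. Here too the 3 triceps arrays of low Ckm were the lowest, at 11.89 to 12.25 against 12.81 to 13.19 on the other 5. The averaged difference was 0.35 (SE 0.19, limma's adjusted p = 0.278) with all arrays and -0.05 without the 3. The dimmer Myoz1 probe set (1448636_at), between 6.60 and 8.09, differed by 0.12 (adjusted p = 0.691), and its r with the brighter one over the 16 arrays was 0.22, so the pair did not give the same profile.

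Ldb3, or Cypher, is a PDZ-LIM protein with many splice forms. Its brightest probe set (1416752_at) read 12.57, 12.77, 12.85 and 12.82 in SOD1G93A gastrocnemius and 12.51, 12.31, 12.75 and 12.42 in SOD1G93A triceps. NTg mice had 12.57, 12.54, 12.70 and 12.79 in gastrocnemius, and 12.22, 12.00, 12.70 and 12.73 in triceps. The muscles overlapped, although the gastrocnemius value was above the triceps value in 8 of 8 mice. Averaged differences were 0.25 for this probe set, 0.17 for 1451999_at and -0.09 for 1433783_at, none of them called (limma's adjusted p = 0.214, 0.648 and 0.607). Over the 16 arrays the first had r = 0.84 with 1451999_at and r = -0.13 with 1433783_at, so the Ldb3 probe sets did not share 1 profile. Without the 3 arrays of low Ckm the first differed by 0.06.

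The 5 genes that differed between the muscles kept their calls without the 3 arrays of low Ckm in the averaged comparison. Their differences were then 3.06 for Myoz2, 2.49 for Ankrd2, 2.27 for Csrp3, 1.50 for Pdlim1 and 0.86 for Actn2, while calls over the whole table fell to 103. The members scattered less between gastrocnemius arrays than between triceps arrays, 1433783_at of Ldb3 excepted. The pooled standard deviation within a genotype was 0.25 in gastrocnemius and 0.59 in triceps for Myoz2, 0.06 in gastrocnemius and 0.43 in triceps for Tcap, and 0.12 and 0.39 for Actn2. The median over all tested probe sets was 0.23 in gastrocnemius and 0.30 in triceps.

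Some members varied together within a muscle. Over the 8 mice, deviations of Csrp3 and Ankrd2 from their genotype's mean gave Pearson r = 0.99 and Spearman rho = 0.90 in gastrocnemius. By an exact permutation within genotypes, with 576 regroupings, the two-sided p for r was 0.00174, the smallest they can give, and it was 0.0486 after adjustment over 56 relations. The adjusted p for rho was 0.0648, and r was 0.91 without the 2 mice farthest from the median. In triceps the same pair gave r = 0.96 and rho = 0.95 (exact permutation, adjusted p for r = 0.0729). Myoz1 (brighter probe set) and Tcap gave r = 0.95 and rho = 0.90 in triceps, with exact permutation p = 0.00174, adjusted p = 0.0486 for r and 0.0648 for rho, and r = 0.94 without the 2 farthest mice. By r, no other relation among the 56 passed.

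The Myoz1 and Tcap relation in triceps spans a split between replicate numbers, seen in both genotypes. Myoz1 read 11.89 to 12.81 on numbers 1 and 2 and 13.14 to 13.19 on numbers 3 and 4. Tcap read 12.04 to 12.58 on numbers 1 and 2 and 12.90 to 13.08 on numbers 3 and 4. The permutation exchanged mice between these sets, so its p cannot tell this split from variation between single mice. The lowest values of both genes are those of the 3 triceps arrays of low Ckm, whose part in the relation was not tested. For Csrp3 and Ankrd2 those 3 arrays are spread over the triceps range, at 5.97 to 7.72 for Csrp3 and 5.95 to 7.74 for Ankrd2.

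**Figure D3:**
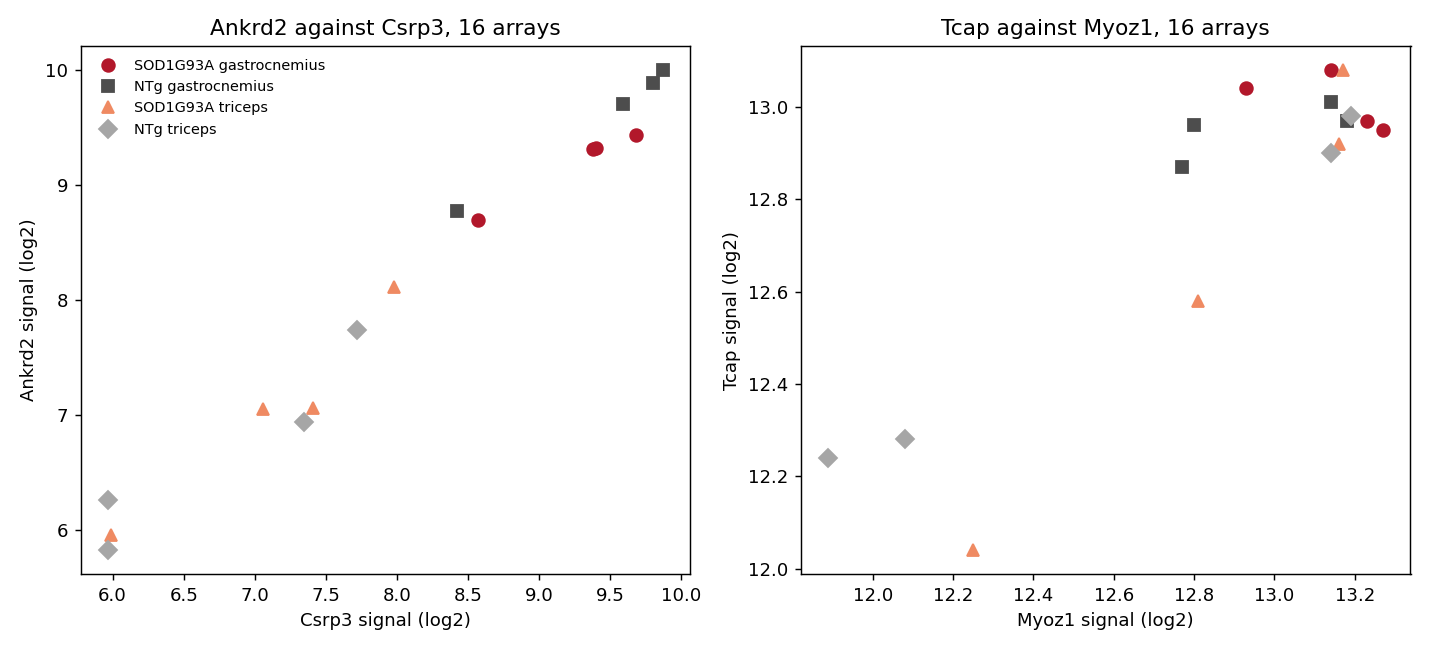
Log2 signal of Ankrd2 against Csrp3 (left) and of Tcap against the brighter Myoz1 probe set (right), with 1 point per array and a colour and shape for each group. Csrp3 and Ankrd2 lie along 1 line through the 16 arrays (r = 0.99), and the 3 points lowest in Myoz1 are the triceps arrays of low Ckm.

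The genes whose signal over the 16 arrays was most like a member's are given as a description, since arrays of a muscle share the muscle difference. For Myoz2 they were Myl3 (r = 0.992), the slow and cardiac essential myosin light chain, Tpm3 (0.984), the slow tropomyosin, and Atp2a2 (0.982), the calcium pump of slow muscle and heart. For Csrp3 they were Hspb7 (0.970), a small heat shock protein of muscle, Lmcd1 (0.958), a LIM protein, and Ldhb (0.934), the heart-type lactate dehydrogenase subunit. Ankrd2 had Hspb7 (0.977), Lmcd1 (0.953) and Bnip3 (0.925), and Pdlim1 had Hspb7 (0.954), Lmcd1 (0.939) and Myl3 (0.933). Actn2 lay nearest Ldhb (0.961), Fhl1 (0.952) and Myh2 (0.942), the myosin heavy chain of fast oxidative fibres.

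Tcap, which was not called between the muscles, lay nearest Cox6c (0.978), a cytochrome oxidase subunit, Myh4 (0.969), the heavy chain of fast glycolytic fibres, and Tnnc2 (0.968), fast troponin C. The brighter Myoz1 probe set lay nearest Pygm (0.976), the muscle glycogen phosphorylase, Seh1l (0.970) and Atp2a1 (0.968), the calcium pump of fast muscle. Ldb3 (1416752_at) lay nearest Ppp1r14c (0.943), Pygm (0.941) and Ttn (0.921), which encodes titin. All of these member probe sets read lower on the 3 triceps arrays of low Ckm than on the other 5. Tcap read 12.04 to 12.28 on the 3 and 12.58 to 13.08 on the 5, and Ldb3 12.00 to 12.31 and 12.42 to 12.75. The part of those 3 arrays in these correlations was not tested.

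Of 29 other Z-disc genes, 21 were in the table and 19 were tested, and 3 were called higher and 0 lower in gastrocnemius in the averaged comparison, with a median difference of 0.30 (0 over all tested). Fhl1, a LIM-only protein, differed by 1.32 (SE 0.20, limma's adjusted p = 0.000471). Smpx, a small muscle protein that responds to stretch, differed by 0.45 (SE 0.08, adjusted p = 0.00237). Cryab, the chaperone alpha-B-crystallin, differed by 0.57 (SE 0.15, adjusted p = 0.0493), and lost its call in 15 of 25 alternatives, single arrays left out among them (adjusted p up to 0.105). In SOD1G93A mice alone only Fhl1 was called, at 1.21 (adjusted p = 0.0492), and this call was lost in 16 of 25 alternatives (up to 0.158).

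In NTg mice Fhl1 differed by 1.43 (limma's adjusted p = 0.0123, and 0.0515 without gastrocnemius 4) and Smpx by 0.54 (adjusted p = 0.0168), a call lost in 5 of 25 alternatives. This call was lost without NTg gastrocnemius 1, 2 or 4, without NTg triceps 2 and without the 3 arrays of low Ckm, with adjusted p up to 0.0963.

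Of 25 further genes of stretch and calcineurin signalling, 16 were in the table and 14 were tested, and 1 was called. Hspb7, the gene nearest Csrp3 and Ankrd2, was higher in gastrocnemius by 2.05 (SE 0.25, limma's adjusted p = 4.27e-05), by 1.63 in SOD1G93A mice and by 2.48 in NTg mice. In SOD1G93A mice its call (adjusted p = 0.0298) was lost in 7 of 25 alternatives, each of them without 1 SOD1G93A array, with adjusted p up to 0.131. Rcan1, a calcineurin inhibitor whose transcript follows calcineurin activity, differed by 0.50 (adjusted p = 0.101), and the median over the 14 was 0.08.

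Genes of slow fibres were higher in gastrocnemius as well, among them Atp2a2 by 4.02 (SE 0.30, limma's adjusted p = 1.05e-07 in the averaged comparison). Of the 12 tested, 6 had a triceps mean under the filter level of 6.75, such as Myh7, the slow myosin heavy chain (4.17), and Tnni1, slow troponin I (4.32). The size of their differences is therefore not well measured, and no count or median over the list is given for this comparison. The difference of Myh7 was 6.91 as deposited and 5.54 with 16 signal units added. The summed linear signal of the list's genes in the table was 32158 to 48561 in SOD1G93A gastrocnemius and 42934 to 51974 in NTg gastrocnemius. It was 6550 to 19418 in SOD1G93A triceps and 6691 to 13905 in NTg triceps. The list also holds Myh2, the heavy chain of fast oxidative fibres, along with Fabp3 and Mb. Their triceps means were 11.78, 10.35 and 12.20, and they enter the sum, which is therefore not a measure of slow fibres alone. Of the 15 tested fast fibre genes limma called 0 in the averaged comparison, 7 had an unadjusted p under 0.05, and the median was 0.50. Tnnc2, the gene of this list that was followed over the alternatives, differed by 0.66, and by 0.12 without the 3 arrays of low Ckm. The part of the slow fibre genes in the members' differences between muscles was not tested.

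Among genes of other cells, the 2 Schwann cell markers in the table of 8 listed were both higher in gastrocnemius, Mbp by 2.34 and Pmp22 by 1.26. Their summed signal was 561 to 1502 in SOD1G93A gastrocnemius and 1030 to 1327 in NTg gastrocnemius, against 357 to 452 in SOD1G93A triceps and 286 to 438 in NTg triceps. Of the tested markers of fibroblasts and tendon 2 of 7 were called higher, of adipocytes 1 of 6 and of immune cells 0 of 3 (0 of 3 also at an unadjusted p under 0.05 by limma). Their part in the members' differences was not tested.

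Between the genotypes no member passed the test in either muscle. In gastrocnemius limma called 0 of the 11, against 0% of the 4637 tested, and in triceps 0 of the 11, against 0%. In gastrocnemius the differences lay between -0.40 for Ankrd2 (95% interval -1.28 to 0.48) and 0.25 for Ldb3 (1451999_at), with adjusted p = 0.999, and 0 of the 11 had an unadjusted p under 0.05, against 2.22% of all tested. Myoz2 averaged 10.84 ± 0.23 in SOD1G93A and 10.92 ± 0.26 in NTg gastrocnemius (SD, n = 4 each), Actn2 10.86 ± 0.11 and 10.88 ± 0.13, and Tcap 13.01 ± 0.06 and 12.95 ± 0.06. The arrays of the genotypes overlapped for each of the 11 probe sets in both muscles, where 2.7% of all tested probe sets did not overlap in gastrocnemius and 0.949% in triceps.

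In triceps the values in SOD1G93A were above those in NTg mice for 7 of the 8 genes, with a median difference of 0.31 (0.02 over all tested), and no difference passed. Without the 3 arrays of low Ckm, which leaves only NTg triceps 3 and 4 as controls, the median was 0.43. Then 5 of the 8 were above 0, with Myoz1 at -0.12, Tcap at -0.08, Ldb3 at -0.15 and Actn2 at 0.12. With single arrays left out the median ran between 0.04 and 0.52 (without SOD1G93A triceps 3 and 2). Myoz2 averaged 7.98 ± 0.62 in SOD1G93A and 7.30 ± 0.55 in NTg triceps (SD, n = 4 each). The difference of 0.68 (SE 0.28, 1.6-fold, 95% interval 0.10 to 1.27) had an unadjusted p of 0.025 by limma and an adjusted p of 0.994. It was 0.40 without SOD1G93A triceps 4 and 0.89 without SOD1G93A triceps 2. The dimmer Myoz1 probe set averaged 7.81 ± 0.23 in SOD1G93A and 7.27 ± 0.54 in NTg triceps, a difference of 0.54 (SE 0.23, limma's unadjusted p = 0.0285, adjusted p = 0.994), where the brighter one gave 0.27. Without NTg triceps 2 these were 0.32 for the dimmer and 0.04 for the brighter one. These 2 of 11 were the probe sets with an unadjusted p under 0.05 in triceps, against 2.54% of all tested.

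Pdlim1 averaged 7.95 ± 0.45 in SOD1G93A and 7.59 ± 0.32 in NTg triceps, Csrp3 7.11 ± 0.84 and 6.75 ± 0.92, and Ankrd2 7.04 ± 0.88 and 6.69 ± 0.84, differences of 0.36, 0.36 and 0.35. Without SOD1G93A triceps 2 these were 0.57 for Pdlim1, 0.73 for Csrp3 and 0.72 for Ankrd2, and without SOD1G93A triceps 3 they were 0.07 for Csrp3 and 0.00 for Ankrd2. Without the 3 arrays of low Ckm they were 0.79, 0.82 and 1.03. Actn2 was the 1 gene below 0, at -0.10. The replicate numbers did not give the same picture: over numbers 3 and 4 the SOD1G93A minus NTg difference in triceps was 1.20 for Ankrd2, 1.04 for Csrp3, 0.96 for Myoz2 and 0.73 for Pdlim1. Over numbers 1 and 2 it was -0.50, -0.32, 0.40 and -0.01, and those numbers hold the 3 arrays of low Ckm. The brighter Myoz1 probe set went the other way, with 0.54 over numbers 1 and 2 and 0.00 over numbers 3 and 4.

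The genes of the slow fibre list, Myh2 included, had a median SOD1G93A minus NTg difference of -0.15 in gastrocnemius and 0.77 in triceps, where it rests partly on dim signals. By limma 0 of 12 were called in each, 0 and 1 had an unadjusted p under 0.05. Without SOD1G93A triceps 4 the triceps median was 0.19, and Myh7 moved to 0.80 from 2.02 and Tnnc1, slow troponin C, to -0.02 from 0.70. Markers of other cells were above 0 in SOD1G93A triceps too: 7 of 7 of fibroblasts and tendon (median 0.30), 6 of 6 of adipocytes (0.29), 2 of 2 of Schwann cells (0.32) and 3 of 3 of immune cells (0.26), as were 15 of 15 fast fibre genes (0.19), none of them called. Without the 3 arrays of low Ckm these medians were 0.11, 0.19, 0.56, -0.21 and -0.07. The part of these lists in the members' values was not tested. Of the other Z-disc genes and the stretch and calcineurin genes 0 were called in either muscle by limma, and 0 had an unadjusted p under 0.05, with medians of 0.06 and 0.06 in gastrocnemius and 0.09 and 0.07 in triceps. Those of smallest unadjusted p included Synpo2, an actin-bundling Z-disc protein (1.13 in triceps, SE 0.61, but 0.13 without NTg triceps 2), Hspb7 (0.72 in triceps, SE 0.35, and 0.43 to 1.09 with single arrays left out) and Srf, the CArG-binding factor (0.44 in gastrocnemius).

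**Figure D4:**
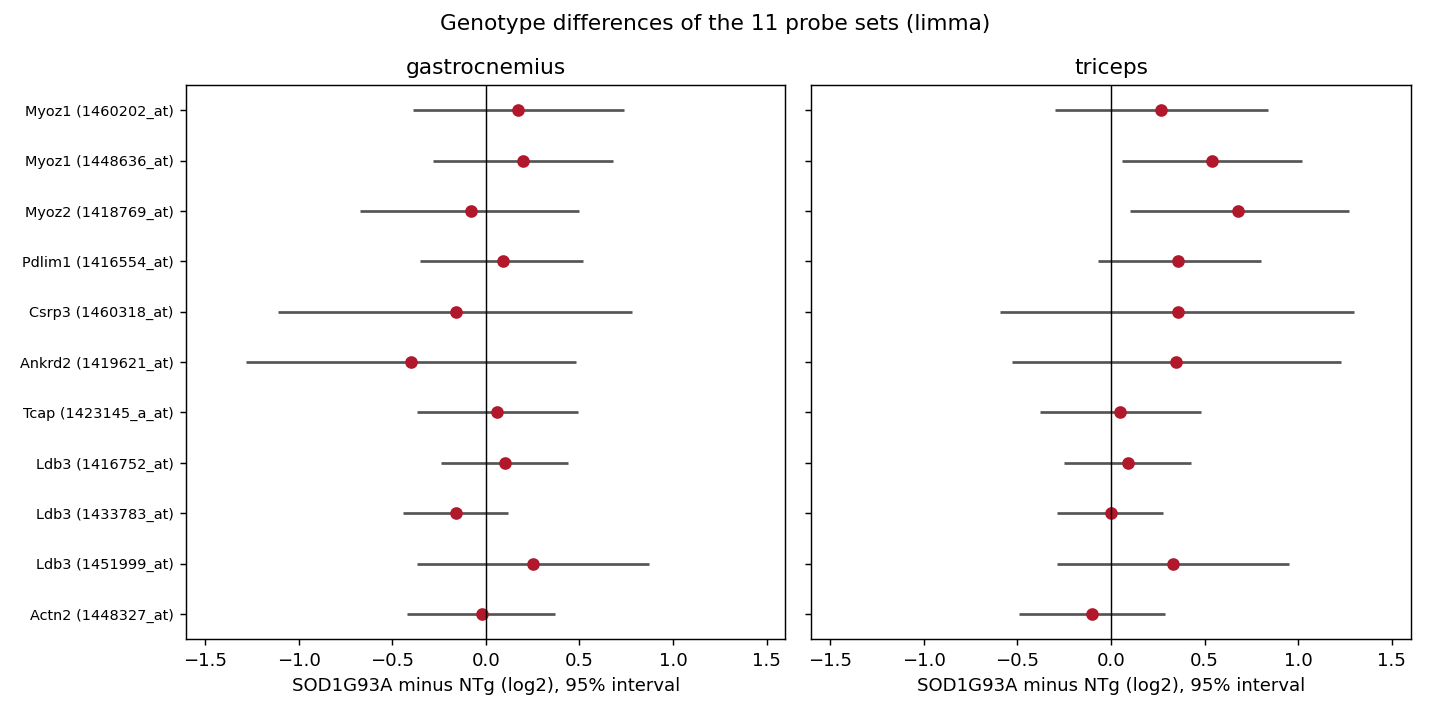
SOD1G93A minus NTg log2 difference with its 95% interval from limma (horizontal axis) for the 11 probe sets (rows), in gastrocnemius and in triceps. Of the 22 intervals 2 leave out 0, those of Myoz2 and of the dimmer Myoz1 probe set in triceps, and neither passed after adjustment.

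Averaged over both muscles, 0 of the 11 were called between the genotypes, against 0% of all, and 0 had an unadjusted p under 0.05, against 1.83%. The differences were 0.37 for the dimmer Myoz1 probe set, 0.30 for Myoz2 and 0.22 for Pdlim1. Whether the genotype difference itself differed between the muscles was tested too, and 0 of the 11 were called, against 0% of all, with 0 at an unadjusted p under 0.05, against 1.85%. The gastrocnemius difference minus the triceps difference was -0.77 (SE 0.39) for Myoz2, with an unadjusted p of 0.0674 and an adjusted p of 0.999 by limma. It was -0.76 (SE 0.59) for Ankrd2, -0.52 (SE 0.64) for Csrp3 and -0.28 for Pdlim1. A smaller gap between the muscles in SOD1G93A than in NTg mice was thus seen in the values of these 4 genes, and it passed for none. For Ankrd2 and Csrp3 it lay mainly in mice 3 and 4. Ankrd2 differed there by 1.32 and 1.63 in SOD1G93A mice, against 2.95 and 2.76 in NTg mice. In mice 1 and 2 it differed by 2.25 and 3.36, against 2.26 and 3.63. Csrp3 had 1.70 and 1.16 against 2.44 and 2.24, then 2.32 and 3.41 against 2.14 and 3.83. With single arrays left out, the -0.76 of Ankrd2 ran over -1.12 to -0.40, and the -0.52 of Csrp3 over -0.89 to -0.23. Myoz2 ran over -0.98 to -0.49. Actn2, the other gene called between the muscles, went the other way, at 0.07 (SE 0.26). Over the 8 genes 5 were below 0 (median -0.19, and -0.04 over all tested). Such values were not particular to members: 11 of 12 of the slow fibre list were below 0 (median -1.08). Of these 12, 6 had a triceps mean under the filter level, so neither the count nor the median is well measured. Without SOD1G93A triceps 4, Myh7 moved to -0.87 from -2.08, Tnnc1 to -0.35 from -1.06 and Tnni1 to 0.91 from -0.21. The 7 of 7 fibroblast and tendon markers were below 0 as well (-0.41). The part of these lists was not tested.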

How the data were processed

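Total RNA of each muscle was labelled and hybridised to an Affymetrix mouse array. The deposited table holds 1 log2 value per probe set and array, made with MAS5 per the submitters' processing notes. The sources used here name no scaling target, no rule that left 7729 probe sets and no base of the logarithm. Values run from -0.773 to 14.811, and base 2 was inferred from that range. Column medians lay between 7.1 and 7.26, trimmed means differed by 1.06-fold at most, and the values were used as deposited. Arrays have no depth, and their number limits the precision. Whether the authors centred or scaled further is not known, and the direction of each difference is that of the group means.

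Symbols came from the platform annotation: 7053 probe sets had 1 symbol, 330 several and 346 none, and 7048 Entrez identifiers matched RefSeq genes (GRCm38.p6), which changed 0 symbols. Probe sets with a mean above the 40th percentile (6.75) were tested, 4637 in all, which included all members. limma 3.58.1 in R 4.3.3 (lmFit, eBayes with intensity trend) fitted 4 group means, with Benjamini-Hochberg adjustment over all tested probe sets and calls at adjusted p under 0.05. For the genotype comparison averaged over both muscles the mouse was a random block (consensus correlation 0.18). The comparisons between muscles, and of the genotype difference between muscles, had no mouse term in the main fit. Their errors and p-values thus do not use the pairing of muscles within a mouse, which enters only in an alternative. Nothing in the labels marks batches. The fits were tested on simulated data.

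By the series' design text both muscles came from the same 4 mice of a genotype, and equal replicate numbers were taken as 1 mouse. Deviations from group means correlated at 0.16 to 0.39 between the muscles of SOD1G93A mice and at 0.14 to 0.33 in NTg mice, best with the own number in 4 of 4 mice each.

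Members, gene lists and the 3 arrays of low Ckm were chosen with earlier results of these data known. The rule for named genes was all members, the called genes of the other Z-disc and stretch lists (with the 3 of smallest p where fewer than 3 were called), the 3 of smallest p of the fibre lists, the 3 genes of highest Pearson r with each member probe set, and the listed markers. The text names part of these. Lists used the brightest probe set of a gene. Alternatives were no filter, a filter at the 60th percentile, quantile normalization, median centring, 16 signal units added, no intensity trend, the mouse or the replicate number as a block, numbers 1 and 2 against 3 and 4 as a block, leaving out the 3 arrays of low Ckm, and leaving out each array. Correlations within a muscle were tested by exact permutation within genotypes.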

Additional observations from a re-analysis of the deposited data

Results flagged for a closer look

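In 2 of 44 groups of 4 arrays, 1 array lay apart from the other 3 by more than Dixon's 95% critical value allows, which chance alone exceeds in about 1 of 20 groups. Ankrd2 read 8.69 in gastrocnemius of SOD1G93A mouse 4, against 9.31 to 9.43 in the other 3 mice, a gap of 0.84 of the range. The dimmer Myoz1 probe set read 7.37 in gastrocnemius of SOD1G93A mouse 2, against 7.86 to 7.91, a gap of 0.91 of the range. The brighter Myoz1 probe set read 13.23 on that array, within its group.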

How the results depend on the processing

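No called difference of a member changed direction under any alternative run. The count of members called between the muscles in SOD1G93A mice was 5, and 2 to 5 with single arrays left out; the cause was not tested, and fewer arrays enter those fits. It was 4 to 5 in NTg mice, and 5 throughout in the averaged comparison except for 6 with numbers 1 and 2 against 3 and 4 as a block, where Tcap passed (limma's adjusted p = 0.0499). With a replicate block (the number for genotypes, the mouse for muscles) the members called stayed at 0 in each genotype comparison and at 5 in each muscle comparison. Same-numbered arrays of the genotypes correlated at 0 to 0.22 in gastrocnemius and at 0.03 to 0.37 in triceps. They were best with their own number in 0 of 4 and 1 of 4 cases, so single numbers do not pair genotypes. In each case, however, the best match lay within the same set of numbers, 1 and 2 or 3 and 4. What the arrays of a set share was not tested. Uncalled genotype differences of members changed sign in 8 of 275 alternative values in gastrocnemius and in 18 of 275 in triceps. Many of these values could not change. The filters, the trend, the blocks and leaving out an array of the other muscle keep a difference of group means as it was. These shares are therefore no measure of how stable the signs are. Calls over the whole table depended more on the setting. In SOD1G93A mice they were 48, and 23 without SOD1G93A gastrocnemius 3; in NTg mice 57, 37 without NTg gastrocnemius 2, 88 with the replicate block and 90 with the set block. In the averaged comparison they were 171, 99 without SOD1G93A triceps 2, up to 272 with another array left out, 318 with the replicate block and 436 with the set block.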
